A study of Mus musculus with 9 samples.

Results

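The genes described here are 4 Id genes (Id1, Id2, Id3 and Id4) and 6 genes of bone morphogenetic protein (BMP) signaling (Bmp2, Bmp4, Bmpr1a, Smad6, Smad7 and Grem1), measured in mouse mammary cultures. All probe sets of the array were taken whose platform annotation gives exactly 1 gene symbol, equal to one of these names. That left 18 probe sets of 10 genes, out of 20380 probe sets with 1 symbol for 12393 genes. The rule itself uses no expression value, though the genes were picked with earlier results of these data known.

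RNA of 3 cultures of each kind was profiled on 9 MOE430A arrays, which hold oligonucleotide probe sets for mouse transcripts. Tumorspheres (TMS) were non-adherent spheres from cells of mammary tumors of MMTV-Neu mice, in which the mouse mammary tumor virus promoter drives the Neu receptor in the mammary epithelium. Mammospheres induced to differentiate (diffMMS) are cells of dissociated mammospheres that were plated on collagen-coated dishes and spent 7 days in medium with serum. They thus differ from both kinds of sphere in attachment as well as in medium, and these cannot be told apart. Mammospheres (MMS) are spheres from glands 3 and 4 of virgin female FVB/N mice that were 6 to 8 weeks old. Spheres of both kinds were passaged every 7 days in the same stem cell medium, and their RNA was taken at passages 3 to 5. The labels give a strain for MMS and diffMMS only, and TMS differ from both in tissue of origin as well as in the transgene. The array codes of the 3 TMS form a run apart from those of the other 6 cultures, so the run of arrays and the tumorsphere state cannot be told apart.

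BMPs are secreted ligands that join type I and type II serine/threonine kinase receptors at the cell surface, which phosphorylate the receptor SMADs. With Smad4 these enter the nucleus and activate target genes, among them the Id genes and the inhibitory SMADs, while secreted antagonists keep ligands from their receptors. Id proteins carry a helix-loop-helix domain without a DNA-binding region, hold E proteins in inactive dimers and are known for keeping progenitor cells, including those of the mammary gland, from differentiating.

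Array medians of the deposited intensities ran from 84.0 to 88.6, no value was at 0, and the lowest was 5.77. All levels below are log2 intensities after addition of 8.67 and quantile normalization, differences are on that log2 scale, which understates the change of dim probe sets, and levels of different probe sets are not comparable with each other. Spearman correlations between arrays of a group were 0.985 to 0.993 in TMS, 0.990 to 0.995 in diffMMS and 0.995 to 0.996 in MMS. Luminal markers set TMS apart: Krt18, a luminal keratin, lay at the 97.8 percentile of probe sets in TMS, 23.4 in diffMMS and 33.1 in MMS, while the 10 fibroblast and matrix genes had a median percentile above 99 in all groups (99.8 in TMS, 99.7 in diffMMS and 99.8 in MMS). The 10 luminal markers ran from the 31.0 to the 98.4 percentile in TMS, from 1.7 to 90.1 in diffMMS and from 2.53 to 83.3 in MMS, with Cdh1 lowest and Cldn3 highest in the diffMMS and MMS. With each array centred on its median in place of quantile normalization, the called probe sets of TMS against MMS split into 1225 higher and 2366 lower, in place of 1471 and 1760, and those of diffMMS against MMS into 2903 and 4673, in place of 3643 and 3846.

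The promoters of Id2, Id3 and Id4, with that of Smad6, are shown first. Windows of 250 bases upstream of the annotated start were found for 7 of the 10 genes (Id2, Id3, Id4, Bmp4, Bmpr1a, Smad6 and Grem1), and they are RefSeq sequences of build GRCm38.p6, written 5′ to 3′ on the strand of the gene. Capitals mark GGCGCC, a palindrome known from BMP-responsive elements, and CAGAC or its reverse complement GTCTG, the SMAD box. The window of Id2 is chr12:25096093-25096342 on the minus strand, that of Id3 chr4:136143572-136143821 on the plus strand, that of Id4 chr13:48260866-48261115 on the plus strand and that of Smad6 chr9:64022060-64022309 on the minus strand.
Id2: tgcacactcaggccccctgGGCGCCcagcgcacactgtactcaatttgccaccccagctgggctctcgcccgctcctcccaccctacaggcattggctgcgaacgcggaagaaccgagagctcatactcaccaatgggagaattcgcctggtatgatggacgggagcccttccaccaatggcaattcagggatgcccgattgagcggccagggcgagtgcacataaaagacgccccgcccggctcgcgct
Id3: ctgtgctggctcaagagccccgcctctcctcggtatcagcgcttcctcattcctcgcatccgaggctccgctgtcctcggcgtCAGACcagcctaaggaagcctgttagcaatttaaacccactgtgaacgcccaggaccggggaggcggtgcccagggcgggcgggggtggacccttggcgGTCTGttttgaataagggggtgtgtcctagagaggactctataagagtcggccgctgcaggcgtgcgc
Id4: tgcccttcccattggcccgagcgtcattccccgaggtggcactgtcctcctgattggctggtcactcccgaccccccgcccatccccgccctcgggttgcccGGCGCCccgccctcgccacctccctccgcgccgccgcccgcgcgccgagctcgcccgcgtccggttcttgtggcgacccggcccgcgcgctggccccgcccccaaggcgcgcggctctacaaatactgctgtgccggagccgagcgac
Smad6: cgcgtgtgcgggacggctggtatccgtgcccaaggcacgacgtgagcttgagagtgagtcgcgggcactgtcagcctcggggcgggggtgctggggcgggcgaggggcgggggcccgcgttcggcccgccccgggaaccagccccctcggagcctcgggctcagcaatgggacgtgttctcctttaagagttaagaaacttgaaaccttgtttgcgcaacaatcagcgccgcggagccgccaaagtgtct

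Id2 held GGCGCC 231 bases before the start, Id4 held it 148 bases before the start, and Id3 held the SMAD box 167 and 68 bases before the start. Neither motif was in the windows of Smad6 and Bmp4. Bmpr1a held GGCGCC, and Grem1 held both motifs. On both strands, GGCGCC is in 9.59% of the 32851 windows of this length and CAGAC in 42.2%. These shares are not matched for base content: G and C made up 62.8% to 78.8% of the windows of these genes, against a median of 52.4% over all windows. GGCGCC holds only G and C. The E box CAGCTG, left in lower case, was also searched on both strands, is in 13% of all windows and was found in that of Id2. A match is a run of letters and no measured binding.

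Of the 18 probe sets, 2 passed limma's test for TMS against MMS (Benjamini-Hochberg adjusted p below 0.05). They were one of Id2 and that of Smad7, both higher in TMS (4 passed without TMS replicate 3). Over all 22626 probe sets, 14.3% passed in either direction (6.5% higher and 7.78% lower), so the count of 2 was near that share. Against diffMMS, 12 of the 18 passed in TMS, 5 higher (3 of Id2, Bmp2 and Smad7) and 7 lower (3 of Id4, Bmp4, Smad6 and 2 of Bmpr1a), where 23.7% of all probe sets passed (12.2% higher and 11.4% lower). In diffMMS against MMS, 10 passed, 6 higher (3 of Id4, Smad6 and 2 of Bmpr1a) and 4 lower (3 of Id2 and Bmp2), where 33.1% of all passed (16.1% higher and 17% lower). The probe sets of a gene share their transcripts, so these are not independent counts. With 1 probe set per gene, that of the highest mean, the counts were 2, 6 and 4 of 10 genes, where 13.4%, 24.9% and 34% of all genes passed in the same order of comparisons. TMS and MMS each enter 2 of the comparisons, as do diffMMS, so the comparisons are not independent of each other.

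**Figure D1:**
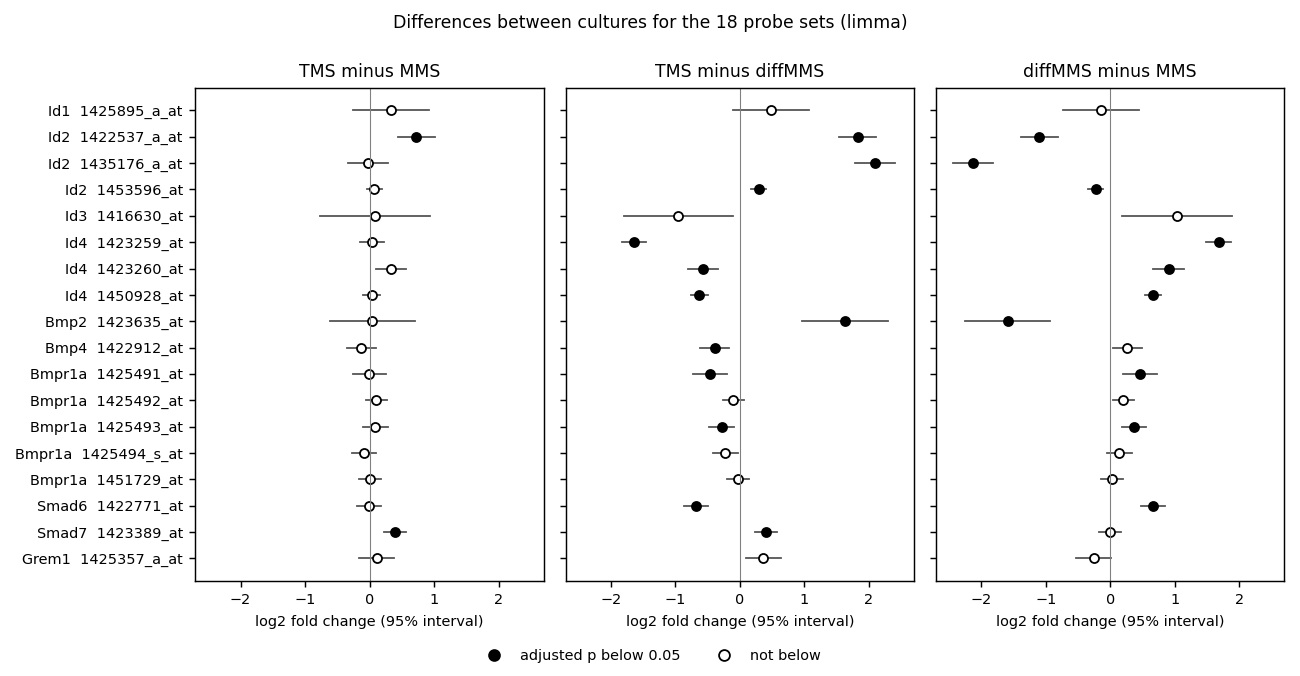
Log2 fold change (x axis) of each of the 18 probe sets (rows) in TMS minus MMS, TMS minus diffMMS and diffMMS minus MMS, with 95% intervals as bars and filled points for an adjusted p below 0.05 from limma. In the first panel 2 points are filled, in the second 12 and in the third 10, with Id2 and Bmp2 on the opposite side of 0 from Id4 and Smad6 in the panels that involve diffMMS.

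Marker lists moved with the same comparisons, and their part in the results below was not tested. Of 10 luminal markers, 9 were higher in TMS than in diffMMS and 9 were higher in TMS than in MMS, and limma called 0 lower in either comparison (1 and 0 at an unadjusted p below 0.05). Their summed level (log2) was 12.24 to 12.88 in TMS, 9.62 to 9.94 in diffMMS and 9.48 to 9.67 in MMS. Of 10 basal and myoepithelial markers, limma called 6 higher and 0 lower in diffMMS than in MMS. The largest of these rises were those of the contractile genes Tagln (3.73), Acta2 (2.59) and Mylk (1.98). The keratins Krt5, Krt14 and Krt17 did not pass (0.19, -0.006 and 0.04). The summed level, to which Acta2 and Tagln added most in diffMMS, was 10.06 to 10.18 in TMS, 11.98 to 12.52 in diffMMS and 9.92 to 10.02 in MMS. All 9 proliferation genes measured were lower in diffMMS than in MMS, with a summed level of 11.15 to 11.18 in TMS, 10.10 to 10.13 in diffMMS and 11.65 to 11.66 in MMS. Of 9 macrophage markers, 5 were higher in TMS than in MMS, with a summed level of 10.41 to 11.14 in TMS, 9.62 to 10.25 in diffMMS and 9.41 to 9.56 in MMS. Of 10 fibroblast and matrix genes, 2 were higher and 7 lower in TMS than in diffMMS, and their summed level was 15.13 to 15.30 in TMS, 15.59 to 15.63 in diffMMS and 15.34 to 15.42 in MMS. In RNA of whole cultures, fewer cells of a type and less RNA per cell cannot be told apart.

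Among the ligands, Bmp2 was low in diffMMS and Bmp4 changed little. Bmp2 had levels of 6.06, 7.23 and 5.65 in TMS 1, 2 and 3, of 4.84, 4.91 and 4.31 in diffMMS, and of 6.36, 6.23 and 6.23 in MMS. All 3 diffMMS lay below every other array, and the TMS spread on both sides of the MMS. Its level was 3.09 times higher in TMS than in diffMMS (log2 difference 1.63, standard error 0.303, adjusted p = 0.00206 from limma), and in diffMMS it fell by 1.59 against MMS (adjusted p = 0.00187). With 32 added before log2 in place of 8.67, these differences were 1.09 and -1.03, and both passed. The difference of TMS minus MMS was 0.04 (95% interval -0.62 to 0.70), and without TMS replicate 2 it was -0.42 (adjusted p = 0.156 from limma).

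Bmp4, a ligand made in the mesenchyme of many organs, had levels of 6.29, 5.87 and 5.996 in TMS, of 6.51, 6.45 and 6.36 in diffMMS and of 6.24, 6.06 and 6.23 in MMS. The diffMMS lay above all other arrays, by a small margin. The level in TMS fell by 0.39 against diffMMS (adjusted p = 0.0171 from limma), a call that was lost without TMS replicate 2 (adjusted p = 0.0733) or without diffMMS replicate 1 (adjusted p = 0.0557). Between diffMMS and MMS the difference was 0.26 (adjusted p = 0.0702), with the groups apart, as in 51.6% of all probe sets of that comparison. That adjusted p was 0.0233 without TMS replicate 1, 0.0227 with those 2 groups alone in the fit and 0.0374 with the values as deposited.

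Bmpr1a, a type I receptor for BMPs, was represented by 5 probe sets, and 2 of them were higher in diffMMS. Probe set 1425491_at had levels of 7.21, 7.08 and 7.55 in TMS, of 7.66, 7.74 and 7.85 in diffMMS and of 7.31, 7.42 and 7.12 in MMS. Here the diffMMS were above the other 6 arrays, which overlapped. Its level in diffMMS rose by 0.46 against MMS (adjusted p = 0.0109 from limma), and in TMS it fell by 0.47 against diffMMS (adjusted p = 0.0137). Probe set 1425493_at gave 0.37 for diffMMS minus MMS (adjusted p = 0.00650) and -0.28 for TMS minus diffMMS (adjusted p = 0.0346). The other 3 probe sets did not pass in any comparison with all arrays and the settings used throughout, with differences of 0.03 to 0.20 for diffMMS minus MMS. The brightest, 1425492_at, was among them, at 0.20 (adjusted p = 0.0543), and it depended on the settings: it passed without TMS replicate 1 or 3 (adjusted p = 0.0464 and 0.0385) and under 4 settings that kept the scaling (adjusted p = 0.0249 to 0.0422), and it was 0.06 with values as deposited and 0.017 with arrays centred on the median (adjusted p = 0.515 and 0.891). Probe set 1425494_s_at gave -0.23 for TMS minus diffMMS (adjusted p = 0.0829), and passed without TMS replicate 3 (adjusted p = 0.0473), without diffMMS replicate 1 (adjusted p = 0.0332) and when arrays were weighted (adjusted p = 0.0115). The calls of 1425491_at were lost without MMS replicate 3 for diffMMS minus MMS (adjusted p = 0.0564) and without TMS replicate 2 or diffMMS replicate 3 for TMS minus diffMMS (adjusted p = 0.0603 and 0.0575), and both were lost with arrays centred on the median (adjusted p = 0.0526 and 0.0518). For 1425493_at the call of TMS minus diffMMS was lost when any one of 5 arrays was left out, TMS replicates 2 and 3, diffMMS replicates 1 and 2, and MMS replicate 3 (adjusted p = 0.0505 to 0.130), and with values as deposited, arrays centred on the median or the 2 groups alone in the fit (adjusted p = 0.0665, 0.0788 and 0.0670).

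The inhibitory SMADs parted from each other. Smad6, which blocks BMP type I receptors and their SMADs, had levels of 5.71, 5.78 and 5.95 in TMS, of 6.51, 6.37 and 6.59 in diffMMS and of 5.82, 5.76 and 5.90 in MMS. The diffMMS were highest, with a gap to the 6 overlapping arrays of TMS and MMS. Its level rose in diffMMS against MMS by 0.66 (standard error 0.0838, adjusted p = 9.44e-05 from limma), and in TMS it fell by 0.68 against diffMMS (adjusted p = 9.74e-05). TMS minus MMS was -0.01 (95% interval -0.20 to 0.17).

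Smad7, which blocks receptors of both the BMP and the TGF-β branch, had levels of 7.48, 7.57 and 7.61 in TMS, of 7.10, 7.11 and 7.25 in diffMMS and of 7.19, 7.23 and 7.05 in MMS. Here the TMS were highest and did not overlap with either of the other groups, which overlapped with each other. Groups were apart in 33.3% of all probe sets between TMS and MMS and in 37.4% between TMS and diffMMS. The level rose in TMS by 0.40 against MMS (standard error 0.0791, adjusted p = 0.00584 from limma) and by 0.40 against diffMMS (adjusted p = 0.00290), which are both 1.32-fold. For diffMMS minus MMS the difference was -0.01 (95% interval -0.18 to 0.17). These calls of Smad6 and Smad7 remained past the threshold with each of the 9 arrays left out in turn.

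Grem1, a secreted antagonist that binds BMP2 and BMP4 and is made by fibroblasts, differed little between the cultures. It had levels of 7.33, 7.75 and 7.58 in TMS, of 7.39, 6.96 and 7.21 in diffMMS and of 7.44, 7.35 and 7.55 in MMS. The groups overlapped, with a pair of diffMMS lowest. TMS minus diffMMS was 0.36 and just missed the threshold (adjusted p = 0.0529 from limma), passing it without TMS replicate 1 (adjusted p = 0.0140) or diffMMS replicate 1 (adjusted p = 0.0251) and under 5 other settings (adjusted p = 0.00350 to 0.0497). TMS minus MMS was 0.11 (95% interval -0.17 to 0.38) and diffMMS minus MMS was -0.26 (95% interval -0.53 to 0.01).

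**Figure D2:**
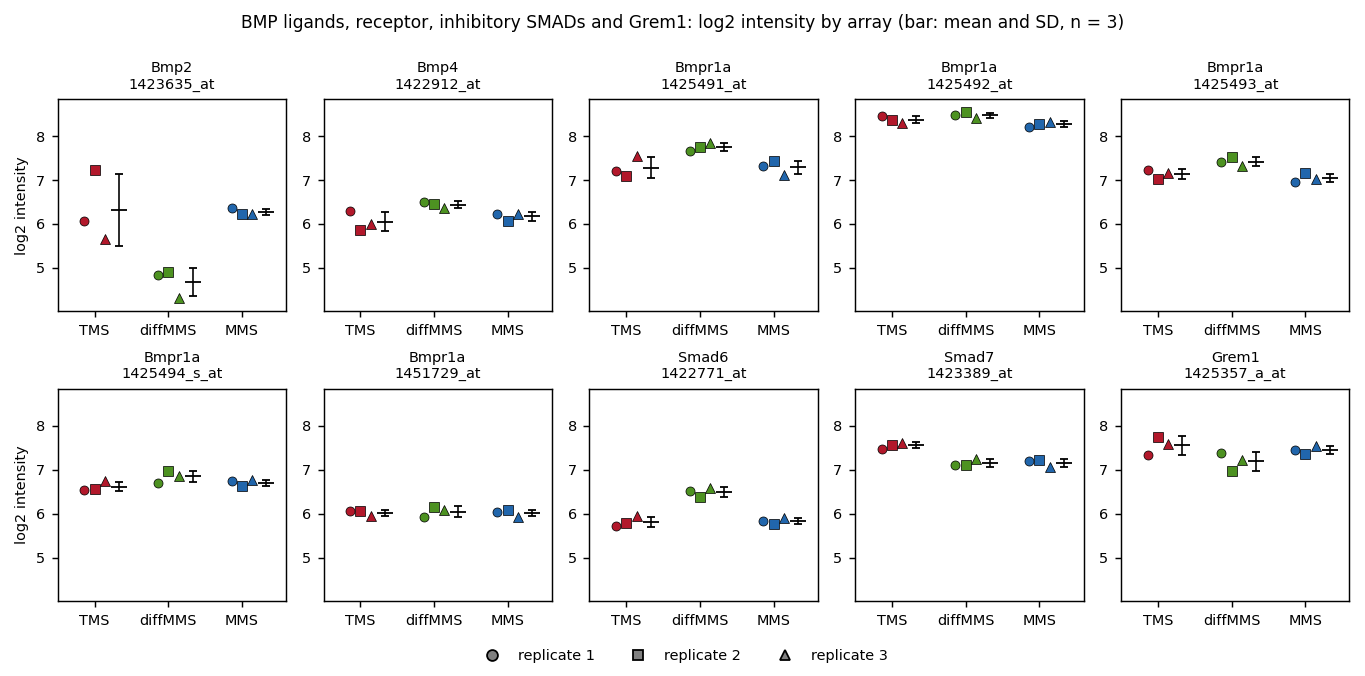
Log2 intensity (y axis) of the probe sets of Bmp2, Bmp4, Bmpr1a, Smad6, Smad7 and Grem1 in TMS, diffMMS and MMS (x axis), 1 symbol per array with its shape giving the replicate, and the mean and SD (n = 3) as a bar. The 3 diffMMS lie lowest for Bmp2 and highest for Smad6, the 3 TMS lie highest for Smad7, and the TMS of Bmp2 range over 5.65 to 7.23.

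The 4 Id genes followed different patterns: Id2 was lowest and Id4 highest in diffMMS, and Id1 and Id3 varied most among the tumorspheres. Id2, which in the mammary gland is known for its part in alveolar development, had levels of 8.75, 8.70 and 8.90 in TMS, of 7.22, 7.04 and 6.62 in diffMMS and of 8.17, 7.96 and 8.05 in MMS with its brightest probe set, 1422537_a_at. The groups stood apart in the order TMS, MMS and diffMMS from high to low, and each neighbouring pair differed beyond its spread. This level was 3.54 times higher in TMS than in diffMMS (log2 difference 1.83, standard error 0.131, adjusted p = 9.53e-07 from limma) and 1.65 times higher in TMS than in MMS (0.72, adjusted p = 0.00343). In diffMMS it fell by 1.10 against MMS (adjusted p = 5.87e-05).

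The second probe set of Id2, 1435176_a_at, showed the fall in diffMMS and no rise in TMS. It had levels of 6.51, 6.58 and 7.12 in TMS, of 4.67, 4.55 and 4.71 in diffMMS and of 6.81, 6.59 and 6.91 in MMS. The diffMMS were lowest by a wide margin, and TMS and MMS overlapped. In diffMMS this level fell by 2.12 against MMS (adjusted p = 4.8e-07 from limma), and TMS minus diffMMS was 2.09 (adjusted p = 5.6e-07). The mean of the diffMMS lay near the dim end, at the 9.22 percentile of probe sets, and the size of both differences moved with the processing. Over all settings and arrays left out they ran from -2.55 to -1.45 and from 1.43 to 2.52, all past the threshold. TMS minus MMS was -0.03 (95% interval -0.34 to 0.28), an interval that leaves out the 0.72 of the brightest probe set. A dim probe set, 1453596_at, lay between 4.76 and 5.21 in all arrays and gave 0.29 for TMS minus diffMMS (adjusted p = 0.00163), -0.22 for diffMMS minus MMS (adjusted p = 0.00687, and 0.0612 with values as deposited) and 0.07 for TMS minus MMS (adjusted p = 0.440). The higher Id2 in TMS than in MMS thus rests on 1 of 3 probe sets, and the lower Id2 in diffMMS on all 3.

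Id4, which in the mammary gland is known as a marker of basal cells, rose in diffMMS with each of its 3 probe sets. Probe set 1423260_at, the brightest, had levels of 6.89, 6.93 and 6.61 in TMS, of 7.33, 7.31 and 7.52 in diffMMS and of 6.31, 6.52 and 6.61 in MMS. The diffMMS were highest, and TMS and MMS met at TMS replicate 3 and MMS replicate 3. It rose in diffMMS against MMS by 0.91 (adjusted p = 6.05e-05 from limma), and in TMS it fell by 0.58 against diffMMS (adjusted p = 0.00217). TMS minus MMS was 0.33 (adjusted p = 0.0638), which passed without TMS replicate 3 (0.43, adjusted p = 0.0129).

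The largest difference of Id4 came from 1423259_at, with levels of 4.50, 4.66 and 4.43 in TMS, of 5.98, 6.26 and 6.28 in diffMMS and of 4.58, 4.50 and 4.39 in MMS. The mean of the diffMMS lay at the 39.3 percentile of probe sets, and TMS and MMS lay together near the dim end of the array, at the 7.6 and 7.06 percentiles. In diffMMS this level was 3.21 times higher than in MMS (1.68, standard error 0.0870, adjusted p = 5.9e-08 from limma), and in TMS it fell by 1.64 against diffMMS (adjusted p = 7.2e-08). The size of these differences moved with the constant added before log2: diffMMS minus MMS was 2.12 with 1 added and 1.06 with 32 added, and TMS minus diffMMS was -2.06 and -1.04. Probe set 1450928_at gave 0.66 for diffMMS minus MMS (adjusted p = 5.6e-06) and -0.63 for TMS minus diffMMS (adjusted p = 1.0e-05), with 0.95 and -0.90 when 1 was added and 0.35 and -0.33 when 32 was added. All of these passed the threshold.

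Id1 and Id3, the Id genes best known as direct BMP targets, did not pass in any comparison. Id1 had levels of 7.80, 8.72 and 7.23 in TMS, of 7.43, 7.39 and 7.48 in diffMMS and of 7.79, 7.41 and 7.54 in MMS. TMS replicate 2 was the highest of all 9 arrays and TMS replicate 3 the lowest. TMS minus MMS was 0.34 (95% interval -0.25 to 0.93, adjusted p = 0.470 from limma), with -0.07 without TMS replicate 2 and 0.68 (adjusted p = 0.0363) without TMS replicate 3. TMS minus diffMMS was 0.48 (adjusted p = 0.223), with 0.82 (adjusted p = 0.0119) without TMS replicate 3, and diffMMS minus MMS was -0.15 (95% interval -0.73 to 0.44).

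Id3 had levels of 7.29, 8.23 and 6.07 in TMS, of 8.10, 8.24 and 8.12 in diffMMS and of 7.36, 6.74 and 7.24 in MMS. The diffMMS lay above all MMS, and the TMS ranged more widely than either, with replicate 3 below all other arrays and replicate 2 among the diffMMS. The difference of diffMMS minus MMS was 1.04 (95% interval 0.19 to 1.88, adjusted p = 0.0589 from limma), in a fit in which all 3 groups share 1 estimate of the spread. With those 2 groups alone in the fit its adjusted p was 1.5e-04, and it was 0.0105 without TMS replicate 2 and 0.00194 without TMS replicate 3. TMS minus diffMMS was -0.95 (adjusted p = 0.0977), with -1.48 (adjusted p = 0.00415) without TMS replicate 2. TMS minus MMS was 0.08 (95% interval -0.76 to 0.93), with -0.44 without TMS replicate 2 and -0.10 without MMS replicate 2, both short of the threshold.

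**Figure D3:**
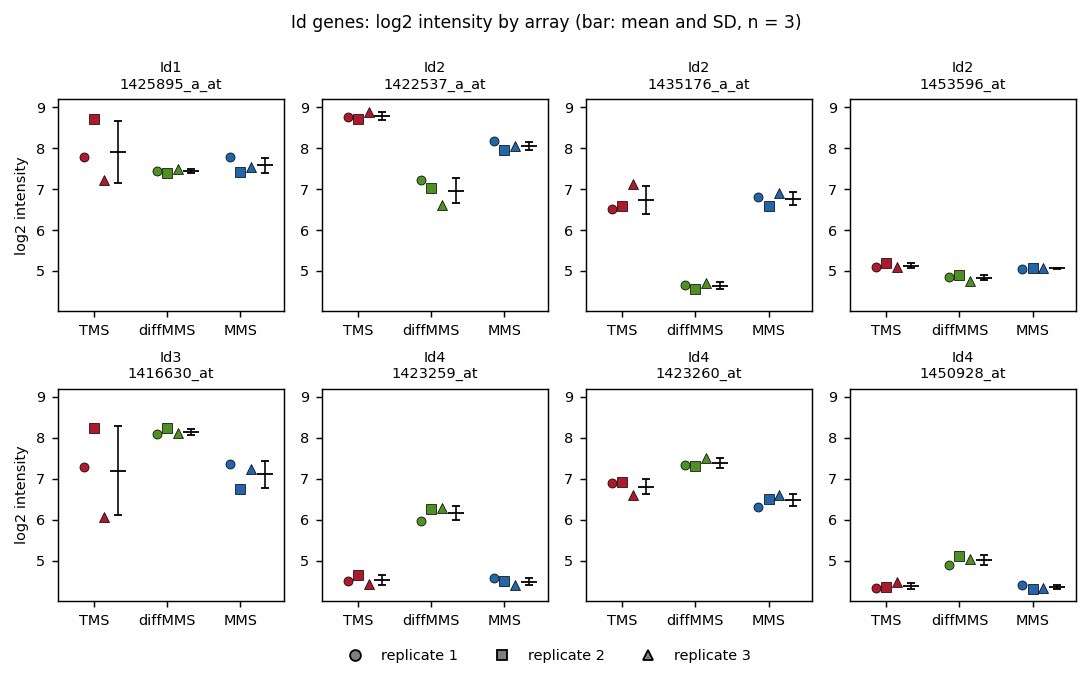
Log2 intensity (y axis) of the 8 probe sets of Id1, Id2, Id3 and Id4 in TMS, diffMMS and MMS (x axis), 1 symbol per array with its shape giving the replicate, and the mean and SD (n = 3) as a bar. The 3 diffMMS lie lowest in each Id2 panel and highest in each Id4 panel, and the TMS of Id3 range over 6.07 to 8.23.

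Of the 10 genes, 3 varied widely among the tumorspheres. The SD of Id3 over the 3 TMS was 1.09, and 3 of the 22626 probe sets had a larger one. Bmp2 had an SD of 0.821 (26 larger) and Id1 of 0.754 (41 larger), where the median probe set had 0.0937. In diffMMS the SDs were 0.0747 for Id3, 0.324 for Bmp2 and 0.0476 for Id1, and in MMS they were 0.330, 0.0773 and 0.192, so that Id3 and Id1 were also more spread than most probe sets in MMS (93 and 735 larger) and Bmp2 in diffMMS (224 larger). Probe sets of the other 7 genes had SDs of 0.0634 to 0.337 in TMS.

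Id1, Id3 and Bmp2 were each highest in TMS replicate 2 and lowest in TMS replicate 3. Of the 35 probe sets with a TMS range at least as wide as that of Id1, 13 had this order (37.1%), the 3 genes among them. In TMS 1, 2 and 3 the mean level of the macrophage markers was 6.76, 7.10 and 6.72, that of the luminal markers was 8.06, 8.06 and 8.55, and that of the endothelial markers was 5.84, 5.80 and 5.67. That of the fibroblast and matrix genes was 11.44, 11.30 and 11.21, that of the proliferation genes was 7.68, 7.74 and 7.69, and that of the basal and myoepithelial markers was 6.54, 6.58 and 6.58. Replicate 2 thus was highest in macrophage and proliferation markers. Replicate 3 was highest in luminal markers and lowest in endothelial and in fibroblast and matrix markers. Their part in the spread of the 3 genes was not tested, and the 3 TMS came from independent tumors.

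**Figure D4:**
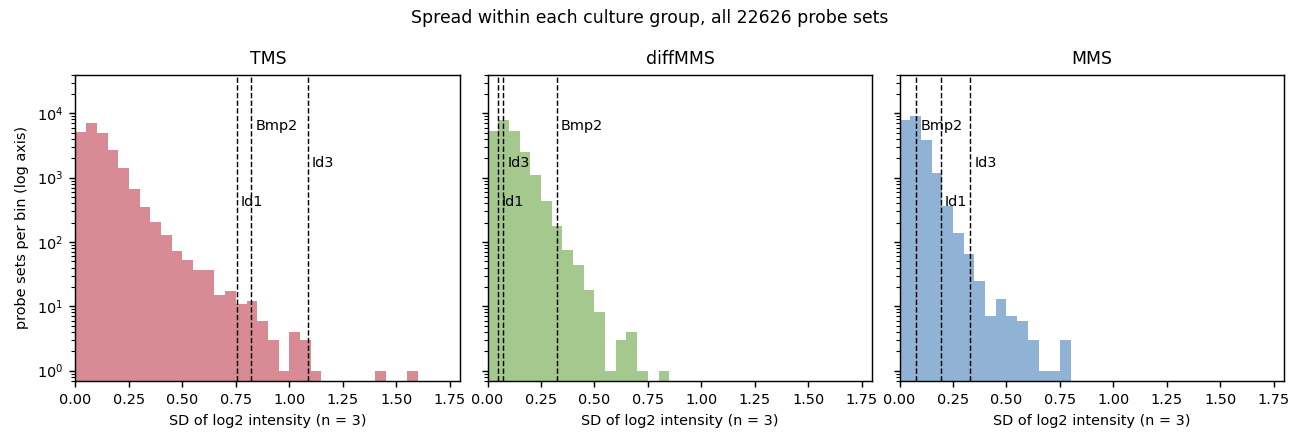
Number of probe sets (y axis, log scale) by the SD of their log2 intensity over the 3 arrays of a group (x axis), for TMS, diffMMS and MMS, with dashed lines at Id1, Id3 and Bmp2. In TMS the lines stand at 0.754, 1.09 and 0.821 in the tail of the distribution, whereas in diffMMS Id1 and Id3 stand at 0.0476 and 0.0747, within its bulk, and Bmp2 at 0.324, in its tail.

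The rest of the pathway was read from 6 lists of ligands, receptors, SMADs, inhibitors, secreted antagonists and targets, with 41 measured genes beside the 10, each counted with its brightest probe set. Of the 41, 15 were higher and 2 lower in diffMMS than in MMS, where 17.9% of all genes were called higher and 16.2% lower. In TMS, 5 were higher and 10 lower than in diffMMS, where 12.3% and 12.6% of all genes were called, and 5 were higher and 0 lower than in MMS, where 6.22% and 7.14% were called. At an unadjusted p below 0.05, limma gave 8 higher and 2 lower for that last comparison. With the 10 genes included its count was 7, and it was 3 without TMS replicate 2, 4 without MMS replicate 1, 2 or 3, and up to 9 with other arrays left out. The median difference of the 41 was 0.12 for diffMMS minus MMS, -0.07 for TMS minus diffMMS and 0.07 for TMS minus MMS, against medians over all probe sets of 0.03, -0.02 and -0.0014.

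Of the secreted antagonists, Grem1 included, 6 of 12 were higher and 0 lower in diffMMS than in MMS by limma (7 and 0 at an unadjusted p below 0.05). Over all genes, 17.9% were called higher and 16.2% lower. Fst, which binds activins and some BMPs, rose by 0.74 (adjusted p = 1.4e-04 from limma), and Fstl3, a relative of it, rose by 0.70 (adjusted p = 2.0e-04). Nbl1, a DAN family antagonist, rose by 0.42 (adjusted p = 0.0139). Grem1 stood on the other side of 0, at -0.26, without passing.

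Receptors and co-receptors moved the same way, with 4 of 8 higher and 0 lower in diffMMS than in MMS by limma (5 and 0 at an unadjusted p below 0.05). Over all genes, 17.9% were called higher and 16.2% lower. Among the 4, Acvr1 passed only with its brightest probe set (0.37, adjusted p = 0.0138 from limma). Its other probe sets gave 0.009 and -0.26 (adjusted p = 0.952 and 0.265). Acvr2a, a type II receptor shared by activins and BMPs, had levels of 5.97, 5.64 and 6.11 in TMS, of 8.29, 8.89 and 8.53 in diffMMS and of 6.23, 6.25 and 6.30 in MMS. Those of the diffMMS stood far above all others. It rose in diffMMS against MMS by 2.31 (adjusted p = 2.9e-07 from limma), and by 1.81 with its other probe set, and in TMS it fell by 2.66 against diffMMS (adjusted p = 8.7e-08). Acvrl1, a type I receptor, rose in diffMMS against MMS by 0.62 (adjusted p = 1.6e-04), and Eng, a co-receptor, by 0.56 (adjusted p = 1.9e-04), where a dimmer probe set of Eng gave 0.06 (adjusted p = 0.557). Both are also known from endothelium, whose part in these rises was not tested. Of 10 endothelial markers, limma called 0 higher and 2 lower in diffMMS than in MMS (0 and 3 at an unadjusted p below 0.05). The 2 were Cd34, with mean levels of 8.65 in MMS and 6.10 in diffMMS, and Emcn, with 5.64 and 5.39. The other 8 did not pass. The summed level of the list was 9.17 to 9.60 in TMS, 9.13 to 9.30 in diffMMS and 9.84 to 9.90 in MMS. Bmpr2, the main type II receptor for BMPs, was higher in TMS than in MMS by 0.39 (adjusted p = 0.0199). Of the 4 signal transducing SMADs, each with its brightest probe set, limma called 0 between diffMMS and MMS and 0 between TMS and MMS (0 and 1 at an unadjusted p below 0.05), and Smad1 fell by 0.45 in TMS against diffMMS (adjusted p = 0.0202). A dimmer probe set of Smad4, the partner of the receptor SMADs, fell in TMS by 0.37 against MMS (adjusted p = 0.0413), while the brightest gave 0.10 (adjusted p = 0.554).

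Inhibitors inside the cell and at its membrane, Smad6 and Smad7 included, all differed between TMS and diffMMS, 4 of 6 higher and 2 lower in TMS. Over all genes, 12.3% were called higher and 12.6% lower in that comparison. Skil, a repressor of SMAD activity, rose in TMS by 0.82 against diffMMS (adjusted p = 0.00141 from limma) and by 0.49 against MMS (adjusted p = 0.0411). Its relative Ski fell in TMS by 0.37 against diffMMS (adjusted p = 0.00408) and rose by 0.26 against MMS (adjusted p = 0.0390). Bambi, a pseudoreceptor, fell in diffMMS by 0.42 against MMS (adjusted p = 0.00102).

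Among 12 targets, the 4 Id genes and the 2 inhibitory SMADs included, 3 were higher and 2 lower in diffMMS than in MMS. Over all genes, 17.9% were called higher and 16.2% lower, so these counts were near those shares. Atoh8, a helix-loop-helix factor, rose in diffMMS against MMS by 0.57 (adjusted p = 3.95e-04 from limma). Msx1, a homeobox target of BMPs, fell by 0.54 (adjusted p = 0.0297) with its brighter probe set, and the dimmer one gave 0.14 (adjusted p = 0.382). Hey1, a target of both Notch and BMP signaling, had levels of 8.79, 8.30 and 8.51 in TMS, of 7.22, 7.15 and 7.13 in diffMMS and of 7.09, 7.12 and 7.07 in MMS. All TMS lay above all other arrays. It rose in TMS by 1.44 against MMS (adjusted p = 5.75e-06) and by 1.37 against diffMMS (adjusted p = 1.7e-06).

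The E proteins, which Id proteins bind, were measured with 3 genes. With its brightest probe set, Tcf4, here the E protein and not the Wnt effector of that name, gave 0.75 for TMS minus diffMMS (adjusted p = 0.00431 from limma), -0.74 for diffMMS minus MMS (adjusted p = 0.00370) and 0.01 for TMS minus MMS (adjusted p = 0.970). Tcf12 rose in TMS by 0.67 against diffMMS (adjusted p = 1.5e-04) and by 0.32 against MMS (adjusted p = 0.0307), and fell in diffMMS by 0.35 against MMS (adjusted p = 0.00880). Tcf3 did not pass in any comparison with its brightest probe set, and another of its probe sets gave 0.23 for TMS minus diffMMS (adjusted p = 0.0495) and -0.30 for diffMMS minus MMS (adjusted p = 0.00987). Other probe sets were not of 1 kind: of the 6 of Tcf4, 5 were lower in diffMMS than in MMS and 2 were lower in TMS than in MMS (-0.75 and -0.57), and a second probe set of Tcf12 gave -0.13 for TMS minus MMS (adjusted p = 0.468). For Tcf4 and Tcf12 the order of diffMMS and MMS was that of Id2.

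**Figure D5:**
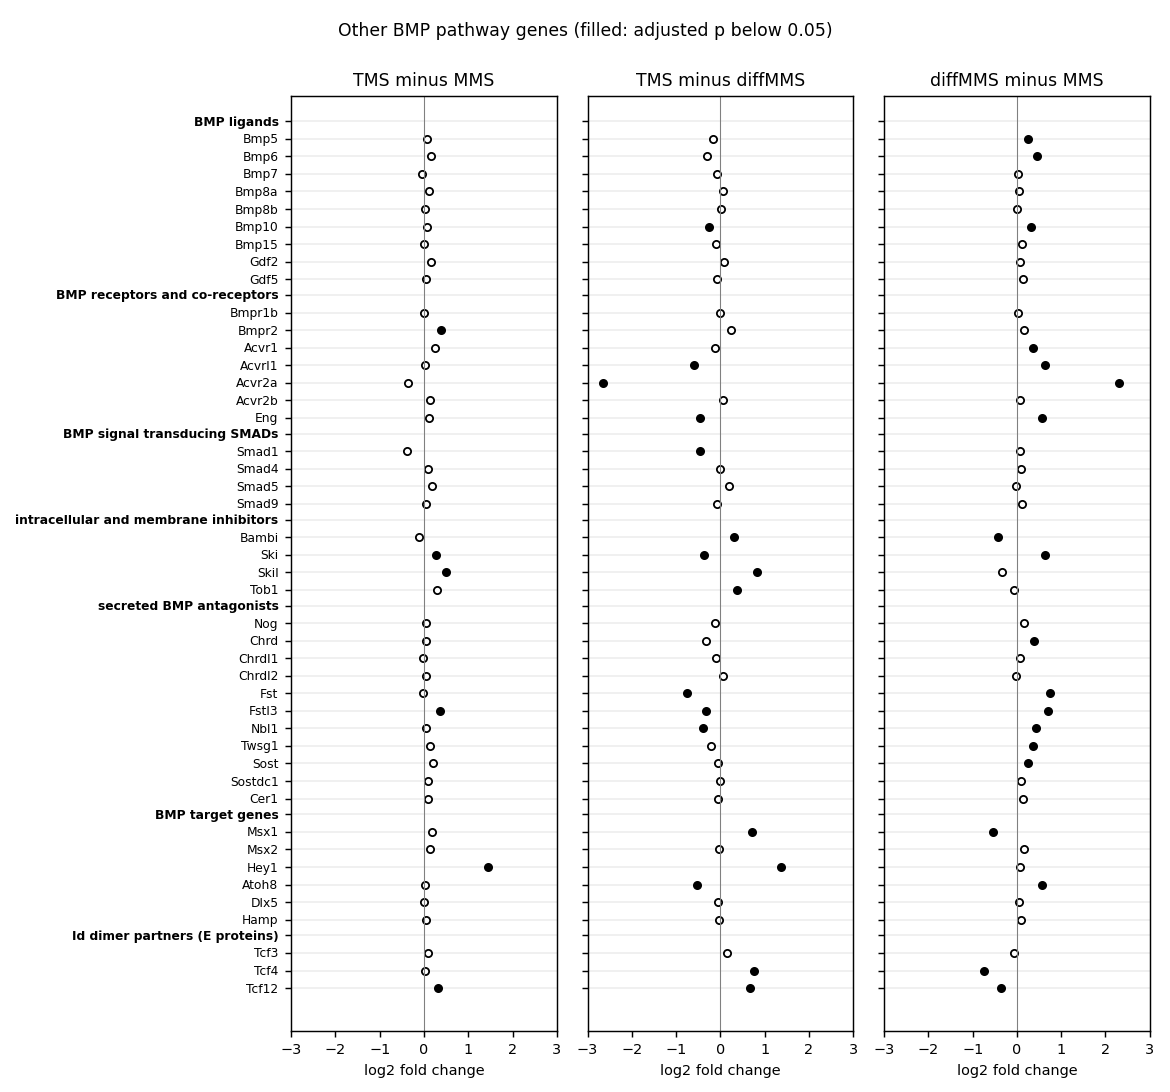
Log2 fold change (x axis) of the other BMP pathway genes and of the E proteins (rows, grouped by role) in TMS minus MMS, TMS minus diffMMS and diffMMS minus MMS, with filled points for an adjusted p below 0.05 from limma. Acvr2a stands farthest from 0, at -2.66 and 2.31 in the panels that involve diffMMS, and Hey1 stands alone above 1 in TMS minus MMS, at 1.44.

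The genes whose pattern over the 9 arrays was nearest to that of each Id gene and of Grem1 were found by the root mean square difference of centred log2 values, as a description. Nearest to Id2 were Crip2 (0.169), Inhbb (0.181) and Itga6 (0.188), and all 3 had, as Id2, higher values in TMS than in MMS and in MMS than in diffMMS. Nearest to Id4 were Osmr (0.0882), Macrod1 (0.0925) and Gm2a (0.0968). Nearest to Id1 were Slc14a1 (0.185), Lmcd1 (0.188) and Ptges (0.202). Those of Id3 were farther away, with Csrp2 (0.287), Fam162a (0.318) and Slc16a3 (0.331). Grem1 was nearest to Mapk8ip3 (0.0926), 2810025M15Rik (0.0930) and Jam2 (0.0941), where its own SD over the 9 arrays was 0.227.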

How the data were processed

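Total RNA of 3 TMS, 3 diffMMS and 3 MMS cultures was hybridized to MOE430A Gene Chips. The authors deposited 1 table of intensity values on a linear scale, already summarised per probe set; how they were scaled is not given in the sources used here, beyond GeneSpring for analysis. The groups came from the labels, which carry no replicate numbers, so the numbers used here follow the order of accession and are names only.

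Of 22690 probe sets, 64 are Affymetrix controls. Annotation gave 1 symbol to 20380 of the others, several to 691 and none to 1555, and 20351 Entrez identifiers matched RefSeq genes of GRCm38.p6, used for names and promoters. Quartiles differed between arrays by up to 0.164 (log2, limit 0.1), so log2(intensity + 8.67), with 10% of the median of all values added, was quantile normalized. One model with 3 group means was used for the 9 arrays (limma 3.58.1 under R 4.3.3: lmFit, then eBayes with trend, leaving 6 residual degrees of freedom). Two-sided p values were adjusted over 22626 probe sets by the Benjamini-Hochberg procedure, with 0.05 as threshold and no filter on dim probe sets. The small number of arrays limits the precision, and the script was tested on simulated data. Where nothing states that MMS and diffMMS came from separate animals, p values measure the spread between these preparations.

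Lists of BMP ligands, receptors, SMADs, inhibitors, antagonists, targets, E proteins and cell type markers used 1 probe set per gene, that of the highest mean. Every member was named with all its probe sets. Of the lists, up to 3 called rises and 3 called falls per comparison were named, with other probe sets of those genes. Krt18, Tcf3, Acvr1 and the basal, myoepithelial and endothelial markers given by name were named after their values were seen. For each Id gene and Grem1 the 3 nearest genes by pattern were named. Members and lists were chosen with earlier results of these data known. Alternatives were the scaling, the pseudocount, a filter on dim probe sets, eBayes without trend or robust, array weights, fits of 2 groups alone, the probe set per gene and each array left out. Plots used Python 3.11.15 and matplotlib 3.10.9.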

Additional observations from a re-analysis of the deposited data

How the results depend on the processing

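With array weights, 4 of the 18 probe sets were called for TMS against MMS (2 without weights), and 14 pathway genes (7 without). With dim probe sets left out, which kept 12352 probe sets and 11 of the 18, 7 were called for TMS against diffMMS (12 without the filter). The 7 of the 18 not tested were the only ones of Bmp2, Bmp4 and Smad6, with Id4 1423259_at and 1450928_at, Id2 1453596_at and Bmpr1a 1451729_at. Grem1 came to pass with this filter (adjusted p = 0.0400 from limma). Under median centring, the 18 split for TMS against diffMMS into 6 higher and 5 lower (5 and 7 with quantile normalization). With each array left out in turn, the counts for TMS against MMS ran from 2 to 4 for the 18, with 4 without TMS replicate 3, and from 3 to 9 for the pathway, with 3 without TMS replicate 2 and 4 without MMS replicate 1, 2 or 3.

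Signs turned only for differences near 0 that passed no test, or for Id1, Id3 and Bmp2. With values as deposited, TMS minus MMS was 0.042 for Smad6, 0.013 for Bmpr1a 1425491_at and 0.021 for Id2 1435176_a_at. With arrays centred on the median it was -0.018 for Bmpr1a 1425492_at, and with array weights diffMMS minus MMS was 0.0053 for Smad7.

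With single arrays left out, TMS minus MMS ran from -0.44 to 0.64 for Id3, -0.067 to 0.68 for Id1, -0.42 to 0.37 for Bmp2, -0.080 to 0.035 for Smad6, -0.22 to 0.087 for Id2 1435176_a_at, -0.025 to 0.090 for Id4 1423259_at, -0.011 to 0.062 for Id4 1450928_at, -0.14 to 0.096 for Bmpr1a 1425491_at and -0.034 to 0.046 for Bmpr1a 1451729_at. The last also ran from -0.089 to 0.027 for TMS minus diffMMS and -0.021 to 0.096 for diffMMS minus MMS, and Smad7 ran from -0.057 to 0.028 for diffMMS minus MMS. The cause was not tested. Of 486 differences with an array left out, 435 kept their direction and side of the threshold, 13 came to pass it, 10 no longer passed and 28 turned sign. Of 465 under other settings, 434 kept both, 20 came to pass, 6 no longer passed and 5 turned sign. The constant added before log2 set the size of dim differences: with 32 in place of 8.67, diffMMS minus MMS was 1.06 for Id4 1423259_at, 0.35 for Id4 1450928_at, -1.03 for Bmp2 and -0.13 for Id2 1453596_at, all past the threshold.

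No paired analysis was possible because the labels carry no replicate numbers. With 3 arrays a group the precision is limited, and the size of differences of dim probe sets depends on the constant added before log2. The array run of TMS cannot be told apart from the tumorsphere state.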
